A study of Mus musculus with 35 samples.

Results

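Ribosome footprints of mouse acute myeloid leukaemia cells with a guide against Ogfod1 (sgOgfod1) were compared with those of control cells (sgScramble). The mice were on a standard amino-acid diet and received vehicle only. The comparison rested on 6 of the 12 footprint libraries of a series of 35 libraries, chosen by their labels: 3 from mice bearing sgOgfod1 leukaemia (replicates 3, 4 and 5) and 3 from mice bearing sgScramble leukaemia (replicates 2, 3 and 5). Of 21897 protein-coding genes in the count table, 11461 held enough footprints to be tested. A ribosome footprint is the stretch of mRNA that a ribosome shields from nuclease, so its count per gene follows how many ribosomes were on that gene's mRNAs. All leukaemias descended from MLL-AF9 cells that carried GFP, came from 1 terminally ill mouse and had been grown in culture; the number of guides and clones behind each genotype is not given in the sources used here. Male recipients aged 8 to 10 weeks received such cells by injection into a vein. The vehicle mice, in both genotypes, received PBS into the peritoneum. The marrow was crushed out of the limb bones and pelvis, and viable GFP+ cells were sorted. From each lysate a small part served for RNA sequencing and the rest for footprints, so the vehicle RNA libraries (5 sgOgfod1 and 5 sgScramble) include the mice used here. The treated mice, used at the end as another setting, were fed a diet free of branched-chain amino acids and received cytarabine (100 mg/kg daily for 5 days) with doxorubicin (3 mg/kg on the first 3 days); 2 sgOgfod1 and 4 sgScramble treated mice had footprints.

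Ogfod1 is an iron- and 2-oxoglutarate-dependent oxygenase. It hydroxylates a conserved proline of the ribosomal protein uS12, encoded by Rps23, which lies at the decoding centre of the small subunit. In yeast the related enzyme affects how accurately stop codons are read, and in human cells the loss of OGFOD1 has been tied to stress granules and altered translation. The coding position concerned is shown here because it ties the targeted enzyme to the ribosome that made the footprints. The Rps23 window lies in exon 3 on the forward strand of GRCm38, chr13:90924333-90924359, with the codon of that proline, codon 62, in capitals (GENCODE M21 annotation).
Rps23: gaggccaaacagCCAaattctgccatc

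The footprint libraries held about 5706000 to 14640000 counts in sgOgfod1 cells and 7899000 to 9465000 counts in sgScramble cells. On the first principal component of the 6 libraries, which held 47.5% of the variance, sgOgfod1 replicates 3 and 5 scored -5.03 and -3.70 and replicate 4 scored -43.1, against 16.2 to 18.9 for the sgScramble libraries. The genotypes were therefore apart, and sgOgfod1 replicate 4, the shallowest library, stood apart from its own group. The 15 genes that mark leukaemic myeloid cells were all tested and none was called. They summed to 4340 to 5240 CPM in sgOgfod1 libraries and 3567 to 4026 CPM in sgScramble libraries. CPM are counts relative to the library's total, here, in sums over markers, without further scaling. The sum does not stand for each member: 6 of 15 had a log2 fold change of sgOgfod1 over sgScramble above 0, with a median of -0.16. The libraries did not overlap downwards for 5 members, against 13.5% of all tested genes, and upwards for 3, against 14.1%. Markers of B and plasma cells summed to 13.5 to 28.5 CPM in sgOgfod1 and 17.1 to 18.6 CPM in sgScramble, and those of T and NK cells to 11.2 to 17.5 CPM in sgOgfod1 and 11.4 to 15.7 CPM in sgScramble. The 30 neutrophil markers summed to 14040, 8042 and 13620 CPM in sgOgfod1 replicates 3, 4 and 5, against 17060 to 19000 CPM in sgScramble. In these bulk samples fewer cells of a type and less RNA per cell cannot be told apart.

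The targeted gene had far fewer footprints. CPM of single genes are given after TMM scaling between libraries unless stated. Ogfod1 (ENSMUSG00000033009, chr8:94037198-94067921, forward strand) had 2.62, 2.98 and 1.67 CPM in the sgOgfod1 libraries, against 13.7, 14.5 and 15.5 CPM in the sgScramble libraries. The difference was -2.67 ± 0.24 (log2 fold change of sgOgfod1 over sgScramble ± SE; edgeR quasi-likelihood, adjusted p = 2.68e-05). Its RNA averaged 10.8 ± 1.3 CPM in sgOgfod1 and 22.7 ± 1.9 CPM in sgScramble cells (SD, n = 5 each). Footprints fell beyond the RNA: the change in translation efficiency, which is footprints relative to RNA in the same mice, was -1.67 ± 0.30 (adjusted p = 0.0367). Rps23 itself had 246, 248 and 264 CPM in sgOgfod1 and 227, 265 and 269.6 CPM in sgScramble. The 2 genotypes overlapped on Rps23, with a log2 fold change of -0.01 ± 0.11, although every 30-base stretch of its coding sequence also occurs in other genes, all 15 of them pseudogenes.

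At an adjusted p under 0.05, 180 protein-coding genes (1.57% of those tested) differed between the genotypes in vehicle mice. Footprints rose in sgOgfod1 on 94 genes (0.82%) and fell on 86 genes (0.75%). All 180 had 3 sgOgfod1 libraries on one side of all 3 sgScramble libraries, a separation that 14.1% of all tested genes showed upwards and 13.5% downwards. At an unadjusted p under 0.05, 1993 genes passed. The number called moved with single libraries. It was 56 without sgOgfod1 replicate 3, 74 without replicate 4 and 194 without replicate 5, and 50, 34 and 34 without sgScramble replicates 2, 3 and 5. Of the 27 named genes, 11, 8 and 3 missed the threshold without sgOgfod1 replicates 3, 4 and 5, and 13, 15 and 17 missed it without sgScramble replicates 2, 3 and 5; none changed sign. Among the 94 higher genes, sgOgfod1 replicate 4 was the highest of its group for 54, and among the 86 lower genes it was the lowest for 65; over all tested genes it was the highest for 4469 and the lowest for 4626.

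**Figure D1:**
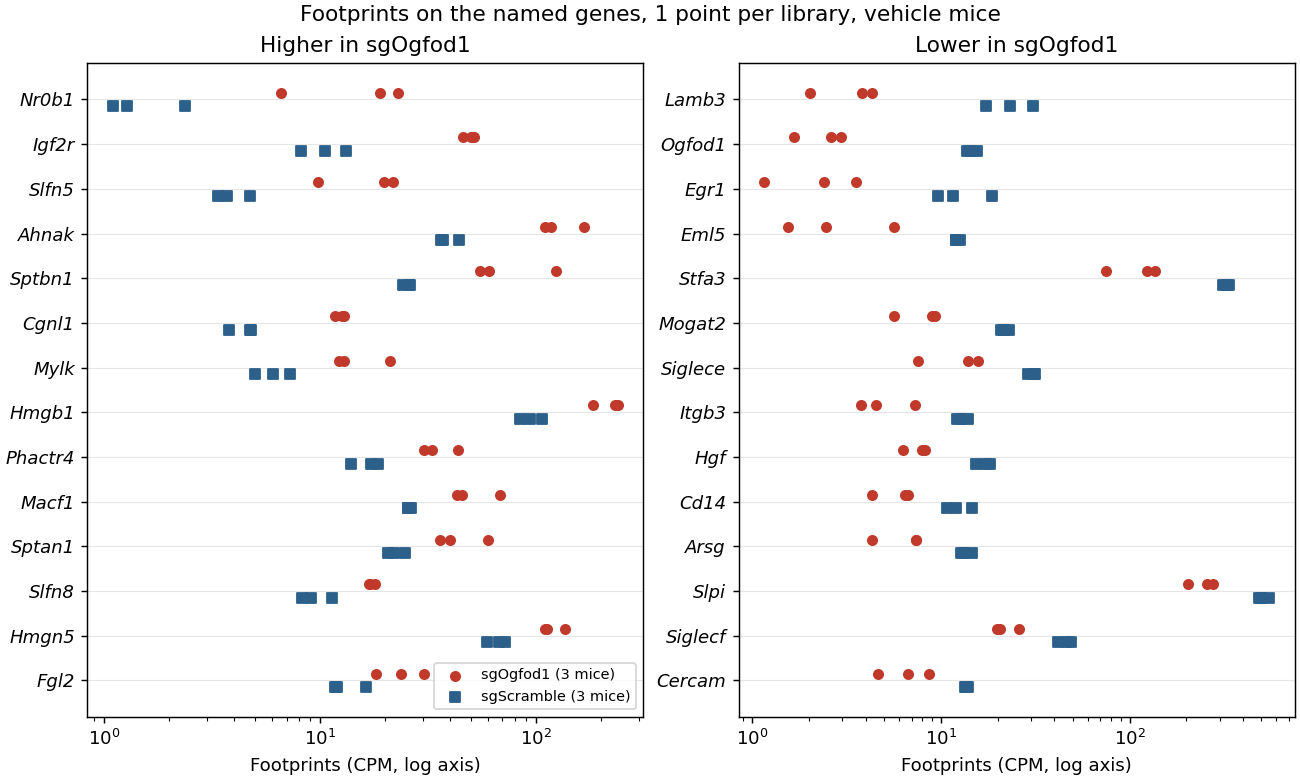
Footprints per library (CPM scaled by the trimmed mean of M-values, log axis) on the 14 named genes that were higher in sgOgfod1 (left) and on the 13 named lower genes with Ogfod1 (right); each circle is 1 sgOgfod1 mouse and each square 1 sgScramble mouse. Named genes other than Ogfod1 had to have groups without overlap, and no sgOgfod1 point crosses a sgScramble point in any row. The single high Sptbn1 and Macf1 points, 124 and 68.1 CPM, are both sgOgfod1 replicate 4.

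The genes with higher footprints included large proteins of the cytoskeleton. Ahnak, a giant scaffold protein of the membrane and cytoskeleton (chr19:8989284-9076914), had 168, 110.1 and 117 CPM in sgOgfod1 and 44, 36.5 and 37.2 CPM in sgScramble. Genes named by rule had to have groups without overlap, and here the gap was wide, with a log2 fold change of 1.75 ± 0.19 (adjusted p = 0.000554). Sptbn1, the non-erythroid beta-spectrin (chr11:30099395-30268175), had 60.6, 124 and 55.2 CPM in sgOgfod1 and 25.9, 26 and 24.2 CPM in sgScramble. The highest library was replicate 4, and the log2 fold change was 1.64 ± 0.28 (adjusted p = 0.0202). Its alpha-spectrin partner Sptan1 had 40.0, 60.2 and 35.9 CPM in sgOgfod1 and 20.7, 24.9 and 21.9 CPM in sgScramble, a log2 fold change of 1.00 ± 0.17 (adjusted p = 0.00865). Macf1, which links actin to microtubules (chr4:123349633-123684360), had 43.1, 68.1 and 45.7 CPM in sgOgfod1 and 25.5, 25.6 and 26.4 CPM in sgScramble, a log2 fold change of 1.01 ± 0.16 (adjusted p = 0.00479). Replicate 4 was the highest library for both genes. Also of this kind among the named higher genes were Mylk, the myosin light chain kinase (1.30 ± 0.23), and Phactr4, a regulator of actin and protein phosphatase (1.09 ± 0.20). Cgnl1, a junctional protein, rose by 1.5 ± 0.21. Not all named genes of the cytoskeleton rose: Eml5, a microtubule-associated protein, was lower, at -1.79.

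Other higher genes encoded receptors, nuclear proteins and Schlafen proteins. Igf2r, the receptor that carries mannose-6-phosphate enzymes to lysosomes and clears insulin-like growth factor 2, had 50.0, 46.0 and 51.6 CPM in sgOgfod1 and 10.6, 13.3 and 8.16 CPM in sgScramble. All 3 sgOgfod1 mice were alike and far above the controls, with a log2 fold change of 2.21 ± 0.42 (adjusted p = 0.0389). Slfn5, an interferon-inducible Schlafen protein, had 21.8, 9.75 and 19.8 CPM in sgOgfod1 and 3.38, 4.75 and 3.71 CPM in sgScramble. Replicate 4 was the lowest sgOgfod1 library here, and the log2 fold change was 2.14 ± 0.31 (adjusted p = 0.00396). The related Slfn8 rose by 0.85 ± 0.19 (adjusted p = 0.0359), with 30.8% of its coding 30-base stretches shared with other genes. Nr0b1, the orphan nuclear receptor DAX1, differed by 3.41 ± 0.64 (adjusted p = 0.0378), with 22.9, 6.61 and 19.0 CPM in sgOgfod1 and 1.09, 2.37 and 1.27 CPM in sgScramble. Its RNA held too few counts to be tested. It missed the threshold in 7 of 14 alternative analyses. In treated mice its footprints overlapped, at 13.1 and 9.27 CPM in sgOgfod1 and 3.05 to 9.63 CPM in sgScramble. Hmgn5, a nucleosome-binding protein, rose by 0.85 ± 0.14 (adjusted p = 0.0049), and Fgl2, a secreted fibrinogen-like protein, by 0.84 ± 0.18 (adjusted p = 0.0242).

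Hmgb1, an abundant chromatin protein that acts as an alarm signal outside cells, had 241, 232 and 184 CPM in sgOgfod1 and 84.4, 107 and 93.9 CPM in sgScramble. The groups were far apart, at 1.2 ± 0.15 on the log2 scale (adjusted p = 0.000513). This value cannot be assigned to Hmgb1 with certainty. Of its coding 30-base stretches, about the length of a footprint, 98.5% occur in other genes, which number 147 and include 145 pseudogenes. The processed pseudogene Gm21596 shares 598 of the 619 stretches and was itself given 8701 footprints over the 6 libraries. The stretches below show how close the copies are: Hmgb1 exon 2 (chr5:149050705-149050734, reverse strand) and Gm21596 exon 1 (chr2:113920373-113920402, reverse strand), with the single differing base in capitals, A18G counted from 1 at the 5′ end of the window (GRCm38, GENCODE M21).
Hmgb1: ggcaaaggagatcctaaAaagccgagaggc
Gm21596: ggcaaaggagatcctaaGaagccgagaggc
How reads with several matches were counted is not given in the sources used here.

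The named genes with lower footprints included a laminin chain, protease inhibitors and receptors. Lamb3, the beta-3 chain of the laminin of epithelial basement membranes (chr1:193207699-193343878), had 2.02, 4.3 and 3.83 CPM in sgOgfod1 and 17.4, 31 and 23.2 CPM in sgScramble. Its log2 fold change was -2.81 ± 0.31 (adjusted p = 0.00118). Stfa3, a stefin protease inhibitor of neutrophil granulocytes, had 124, 75.2 and 137 CPM in sgOgfod1 and 330.3, 312 and 338 CPM in sgScramble, a log2 fold change of -1.54 ± 0.26 (adjusted p = 0.019). Slpi, the secretory leukocyte protease inhibitor, had 204, 257 and 276 CPM in sgOgfod1 and 497, 483 and 550.4 CPM in sgScramble, a log2 fold change of -1.05 ± 0.15 (adjusted p = 0.00258). For both inhibitors the groups did not overlap, which was a condition for naming them.

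Of 39 genes of monocyte and macrophage maturation, Cd14 alone passed, with 15 above 0 and a median of -0.16. Of 26 tested integrin and adhesion genes Itgb3 alone passed, with 11 above 0 and a median of -0.10. Both were lower, as were 0.75% of all tested genes. The co-receptor for bacterial lipopolysaccharide, Cd14, averaged 5.80 ± 1.30 CPM in sgOgfod1 and 12.5 ± 2.0 CPM in sgScramble (SD, n = 3 each; log2 fold change -1.07 ± 0.20). The sialic-acid-binding inhibitory receptors Siglece and Siglecf fell by 1.26 ± 0.23 and 1.04 ± 0.20, and the beta-3 integrin Itgb3 by 1.25 ± 0.24. Hepatocyte growth factor, Hgf, fell by 1.18 ± 0.23. Siglecf also marks eosinophils and Itgb3 megakaryocytes, whose 14 markers summed to 42.9 to 59 CPM in sgOgfod1 and 52.5 to 68.6 CPM in sgScramble, overlapping. Of the 30 neutrophil markers, 12 were above 0. The libraries did not overlap downwards for 13 members, against 13.5% of all tested genes, and upwards for 3, against 14.1%. The list's median was -0.28 in footprints and 0.14 in RNA. The lower sum given above held the stefins Stfa1 (2775, 1430 and 2640 CPM in sgOgfod1 and 4240, 3791 and 4675 CPM in sgScramble, without scaling) and BC100530 as large shares, while Ltf, lactoferrin, had 169, 72.9 and 139 CPM in sgOgfod1 and 58.9, 78.1 and 58.4 CPM in sgScramble; these 3 were picked after their values were seen. Of the Stfa1 coding 30-base stretches, 43% also occur in other genes. BC100530 had values close to those of Stfa1, at 2870, 1459 and 2716 CPM in sgOgfod1 and 4417, 3936 and 4761 CPM in sgScramble. Whether some reads were counted for both genes was not tested. The part of neutrophils, eosinophils and megakaryocytes in the differences was not tested. Egr1, an immediate-early transcription factor, had 3.57, 1.16 and 2.41 CPM in sgOgfod1 and 9.65, 11.6 and 18.6 CPM in sgScramble, a log2 fold change of -2.43 ± 0.33 (adjusted p = 0.00159). Eml5, a microtubule-associated protein, fell by 1.79 ± 0.34, and Mogat2, an acyltransferase of triglyceride synthesis, by 1.42 ± 0.26. Arsg, a lysosomal sulfatase, fell by 1.06 ± 0.19, and Cercam, a cell adhesion protein related to collagen galactosyltransferases, by 0.99 ± 0.21.

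The called genes differed in the length of their coding sequences. The 94 higher genes had a median coding length of 2734 bases and the 86 lower genes one of 990 bases, against 1389 bases over all tested genes. Coding sequences over 6000 bases made up 23 of the 94 higher genes (24.5%) and 1 of the 86 lower genes (1.16%), against 2.84% of all tested genes. Sequences under 600 bases made up 1 higher gene (1.06%) and 30 lower genes (34.9%), against 13.3% of all. The 5 longest of the higher genes, picked here for their length, were Macf1, Ahnak, the ribosome-assembly factor Mdn1, the ubiquitin ligase Rnf213 and Herc1, another large ubiquitin ligase.

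The same lean ran across all genes. With the 11391 tested genes of known coding length put into 10 classes of equal size, the median log2 fold change was -0.13 in the shortest class (63 to 516 bases) and 0.19 in the longest (3528 to 105642 bases). The longest class held 39 of the called higher genes and 4 of the called lower ones, and the shortest held 1 higher and 23 lower. Relative to the sgScramble mean, the longest class stood at 0.17, 0.26 and 0.09 in sgOgfod1 replicates 3, 4 and 5, and at 0.04, 0.00 and -0.04 in sgScramble replicates 2, 3 and 5. The shortest class stood at -0.10, -0.24 and -0.07 in sgOgfod1 and between -0.02 and 0.02 in sgScramble. All 3 sgOgfod1 libraries leaned the same way, and replicate 4 most. Without replicate 4 the median of the longest class was 0.13. In RNA from the vehicle mice the shortest and longest classes had medians of 0.06 and -0.02, in the opposite order.

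**Figure D2:**
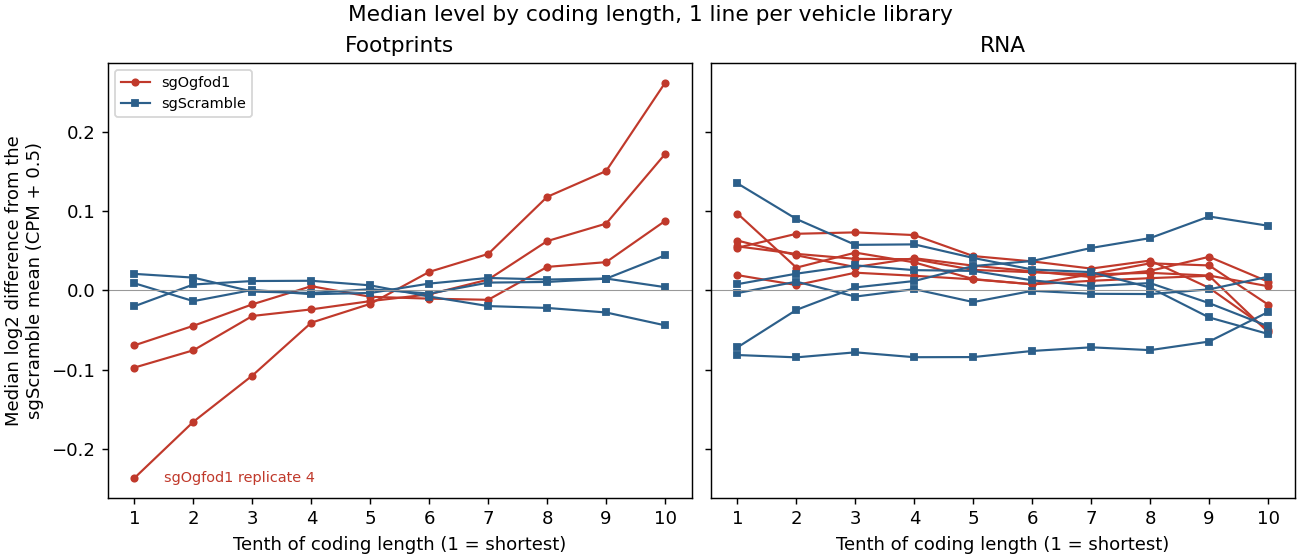
Median log2 difference from the mean of the sgScramble libraries (on CPM plus 0.5) in 10 classes of coding length, 1 line per vehicle library, for footprints (left; 3 sgOgfod1, 3 sgScramble) and RNA (right; 5 and 5). The 3 sgOgfod1 footprint lines climb, ending at 0.09 to 0.26 in the longest class, where the sgScramble lines end between -0.04 and 0.04; the RNA lines of the genotypes mix.

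With the length trend of each library removed, 119 genes were called, 51 of the 94 higher and 57 of the 86 lower genes among them; of the named genes Igf2r (1.99, adjusted p = 0.0536), Slfn8 (0.77, adjusted p = 0.062) and Macf1 (0.54, adjusted p = 0.0781) no longer passed. Among the list members, Eif4g1, Psmd1, Chaf1a and Neu1 (0.37, 0.34, 0.40 and -0.57) also missed the threshold. In 10 classes of G and C content of the coding sequence, the lowest had a median footprint log2 fold change of 0.11 and the highest one of -0.15. Relative to the sgScramble mean, the highest class stood at -0.08, -0.22 and -0.14 in sgOgfod1 and spread from -0.07 to 0.11 in sgScramble. By stop codon the medians were 0.03 for TAA, 0.00 for TAG and 0.00 for TGA, over 2921, 2572 and 5797 genes. The cause of the lean was not tested.

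RNA of the vehicle mice, measured in separate libraries, moved in the same direction as the footprints for most called genes but by less. Of the 94 higher genes, 91 were tested in RNA; their median RNA log2 fold change was 0.21 and 73 of them (80.2%) were positive, against a median of 0.03 and 56.9% over all genes tested in both. Of the 86 lower genes, 85 were tested in RNA, with a median of -0.31 and 81 negative. The 5 sgOgfod1 and 5 sgScramble RNA libraries did not overlap for 31 of the 91 higher (34.1%) and 27 of the 85 lower genes (31.8%), against 5.21% of all. In the RNA data alone 22 protein-coding genes were called (0.154% of 14325), 18 higher and 4 lower. Of these, 4 were also called in footprints: Grb14, an adaptor that binds the insulin receptor, and Cfap57, a ciliary protein, were higher in both, and Eml5 and the ferritin autophagy receptor Ncoa4 were lower in both.

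**Figure D3:**
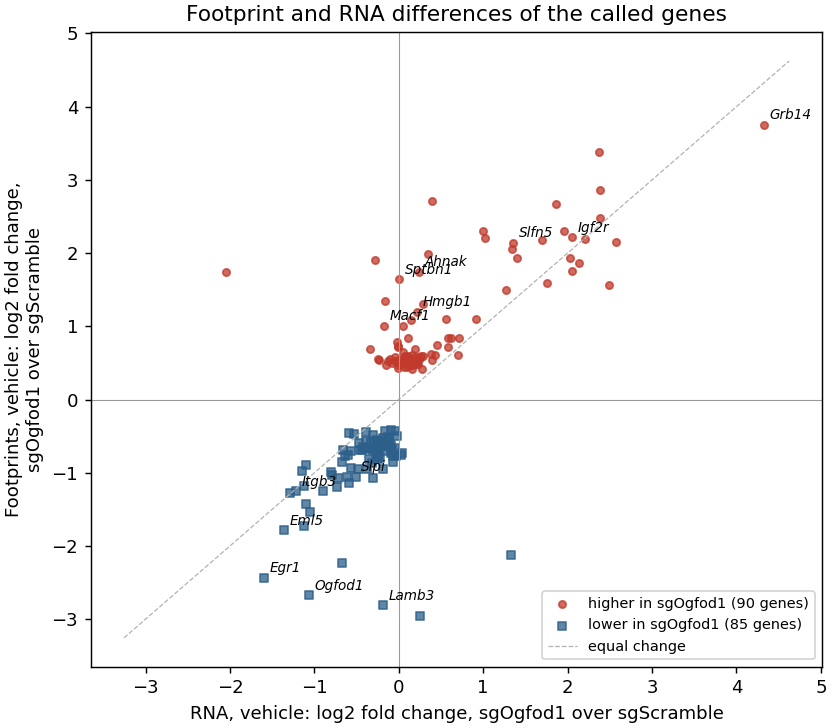
Log2 fold change of sgOgfod1 over sgScramble in footprints (vertical axis) against RNA (horizontal axis) in vehicle mice for the called protein-coding genes tested in RNA, without Prss34, which had no sgScramble footprints; circles are the higher genes, squares the lower genes, and the dashed line marks equal change. Igf2r, at 2.05 in RNA and 2.21 in footprints, lies near the dashed line, while Ahnak, Sptbn1, Macf1 and Lamb3 lie near 0 on the RNA axis. For Ahnak this averages uneven RNA values, 12.1 to 66.4 CPM in the sgOgfod1 mice.

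For some genes the RNA also differed. Igf2r RNA was 25.0 to 31.8 CPM in the 5 sgOgfod1 and 5.00 to 8.97 CPM in the 5 sgScramble mice. These groups lay far apart, although the RNA difference of 2.05 ± 0.59 had an adjusted p of 0.341. Slfn5 RNA was 15.4 to 36.3 CPM in sgOgfod1 and 8.32 to 15.8 CPM in sgScramble, overlapping at the edge (1.36 in RNA, adjusted p = 0.753, and 2.14 in footprints), and Eml5 RNA was 38 to 112 CPM in sgOgfod1 and 159 to 229.6 CPM in sgScramble (adjusted p = 0.0478). For others the RNA showed little difference. Lamb3 RNA was 5.84 to 11.0 CPM in sgOgfod1 and 7.67 to 11.2 CPM in sgScramble, and Sptbn1 RNA averaged 352.1 ± 14.8 CPM in sgOgfod1 and 350.5 ± 28.1 CPM in sgScramble (SD, n = 5 each).

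Translation efficiency was tested as the difference of footprint and RNA changes in the same mice, so it shares the footprint values. It passed for 15 protein-coding genes (0.0952% of 15764), 9 higher and 6 lower. Of the 9, Macf1 (1.15 ± 0.16, adjusted p = 0.0113), Sptbn1 (1.55 ± 0.24, adjusted p = 0.0334) and Hmgb1 (0.95 ± 0.17, adjusted p = 0.0342) were among the named genes. The other 6 all had coding sequences over 6000 bases: the plakin Plec, the nuclear envelope protein Syne2, the dystrophin relative Utrn, fibronectin Fn1, the centrosome protein Cep350 and Prrc2c, an RNA-binding protein of stress granules. Of the 6 with lower efficiency, Lamb3 (-2.64 ± 0.39, adjusted p = 0.0311) and Ogfod1 were also called in footprints. The haemoglobin genes Hba-a1 and Hbb-bs passed with higher RNA, at RNA log2 fold changes of 2.70 and 3.66, and no footprint call. Their RNA was low, at most 1.75 and 12.0 CPM in sgOgfod1 and at most 0.381 and 1.26 CPM in sgScramble. Of their coding 30-base stretches, 93% and 93.3% also occur in other genes. Mettl26 was also among the 6. The 14 erythroid markers summed to 119, 58.5 and 93.2 CPM of footprints in sgOgfod1 and 33, 43.6 and 140.2 CPM in sgScramble, without scaling. Haemoglobin genes held most of this sum, so it is no separate measure of erythroid cells. In sgOgfod1 replicate 3, Hba-a1, Hba-a2, Hbb-bs and Hbb-bt had 30.3, 29.7, 27.0 and 25.2 CPM. The part of erythroid cells in the haemoglobin values was not tested.

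Of 35 initiation factors 4 rose, where 0.82% of all tested genes did: Eif3a, a scaffold subunit of eIF3, by 0.54 ± 0.10; Eif5b, which joins the subunits, by 0.55 ± 0.11; Eif4g1, the scaffold of the cap-binding complex, by 0.52 ± 0.11; and Eif2s1, the eIF2 alpha subunit, by 0.49 ± 0.12. Of the Eif2s1 coding 30-base stretches, 58.3% occur in pseudogenes. The list's median was 0.14, against 0.00 over all tested genes, and 26 of 35 members were above 0. The libraries did not overlap upwards for 15 members, a separation that 14.1% of all tested genes showed. Eif3a had 526, 536 and 442 CPM in sgOgfod1 and 359.7, 342 and 332 CPM in sgScramble. None of the 79 cytosolic ribosomal protein genes passed, with a median of -0.10 and 18 above 0; every coding 30-base stretch of Rpl5 and Rpl21, members of this list, also occurs in other genes. None of the 78 mitochondrial ribosomal protein genes, the 24 elongation, termination and rescue factors or the 22 cytosolic aminoacyl-tRNA synthetases passed either.

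Of 68 ribosome biogenesis genes, 1 rose, against 0.82% of all tested genes: the nucleolar protein nucleolin, Ncl, had 1269, 1429 and 1125 CPM in sgOgfod1 and 839, 865 and 871 CPM in sgScramble, a log2 fold change of 0.57 ± 0.11 (adjusted p = 0.018). The list leaned upwards as a whole, with 62 of 68 members above 0, a median of 0.23 and 32 members whose libraries did not overlap upwards, against 14.1% of all tested genes. Its RNA median was 0.17. Of the 15 tested oxygenases acting on the ribosome or translation and their kin, Ogfod1 alone passed; the lysyl hydroxylase Jmjd6 stood at 0.28. None of the 32 tested targets of ATF4, the factor of the amino-acid response, passed, with a median of 0.01, nor did any of the 22 unfolded protein response genes or the 17 tested cytosolic heat shock genes. None of the 26 stress granule and RNA-binding protein genes of the list passed, with 22 above 0 and a median of 0.20.

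**Figure D4:**
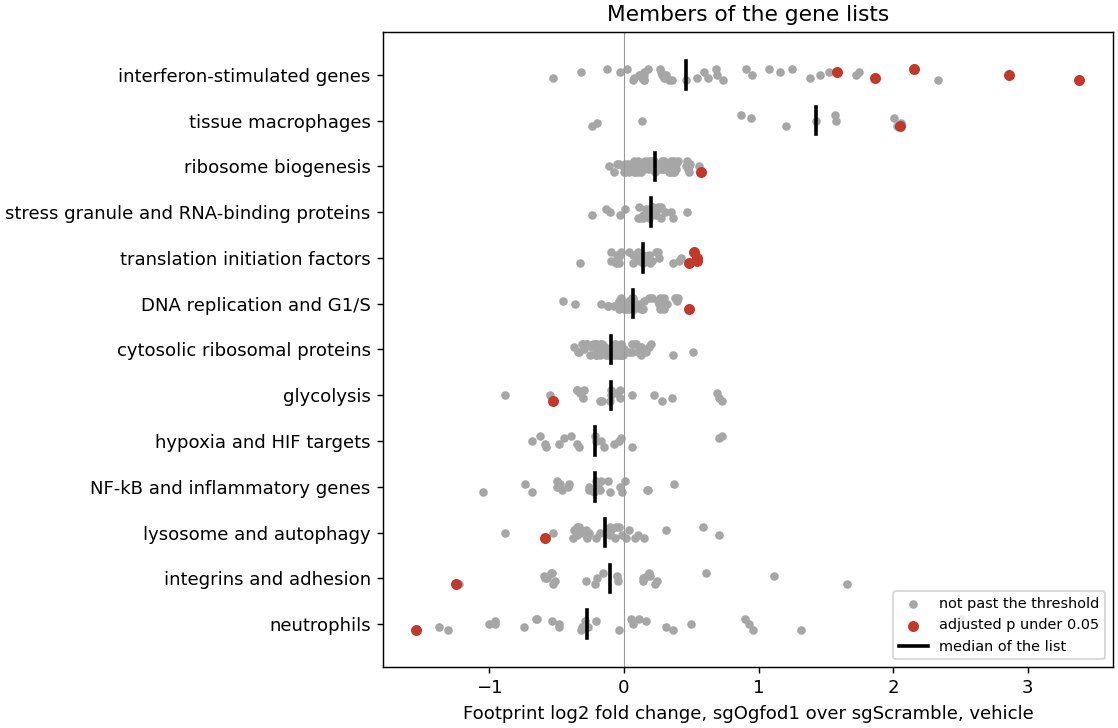
Footprint log2 fold change of sgOgfod1 over sgScramble in vehicle mice for the tested members of 13 gene lists; each point is 1 gene, large red points passed an adjusted p of 0.05, and the black bar is the list's median. Interferon-stimulated genes hold the most called members, 5, while the cytosolic ribosomal proteins hold none and centre on -0.10.

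Among the interferon-stimulated genes, which viral sensing and interferons switch on, 5 of 45 tested members rose, where 0.82% of all tested genes did, and 41 of 45 were above 0, with a median of 0.46. These 5 were low in both genotypes. Ifi204, a DNA-sensing protein, had 10.1, 4.96 and 11.4 CPM in sgOgfod1 and 2.98, 2.62 and 3.39 CPM in sgScramble (log2 fold change 1.59 ± 0.31, adjusted p = 0.018). Of the Ifi204 coding 30-base stretches, 52.2% also occur in other genes. The oligoadenylate synthetase-like gene Oasl2 had 2.74, 1.49 and 2.59 CPM in sgOgfod1 and 0.199, 0.75 and 0.636 CPM in sgScramble (2.15 ± 0.51, adjusted p = 0.0409). Rtp4, a chaperone-like protein, rose by 1.86 ± 0.41. Ifit3 and Ifit3b, antiviral proteins that share 78.7% of their 30-base stretches, had at most 1.85 CPM in any of the 6 vehicle libraries, and rose by 3.38 ± 0.64 and 2.86 ± 0.59. The list's RNA median was 0.44, and in treated mice its footprint median was -0.03. Tissue macrophage markers, the cells of the marrow that clear debris, stood higher as well: 11 of 13 tested were above 0 with a median of 1.43, and 9 did not overlap upwards, as did 14.1% of all tested genes. Only the ficolin Fcna of these passed, with 2.86, 2.48 and 2.53 CPM in sgOgfod1 and 0.398, 0.875 and 0.636 CPM in sgScramble. Without scaling, the whole macrophage list summed to 299, 221 and 216 CPM in sgOgfod1 and 254, 208 and 276 CPM in sgScramble, overlapping. The sum mostly follows 1 member, Vcam1. It had 207, 151 and 147 CPM in sgOgfod1 and 201, 149 and 209 CPM in sgScramble. The part of macrophages in the interferon result was not tested.

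Few members of the other lists passed, where 0.82% of all tested genes were called higher and 0.75% lower. The proteasome subunit Psmd1 rose by 0.42 ± 0.10 and the histone chaperone subunit Chaf1a by 0.48 ± 0.11, each 1 member of its list. In the MLL-AF9 programme Hmgb3 rose by 0.53 ± 0.12, with all of its coding 30-base stretches shared with other genes, and the transcription factor Runx2 fell by 0.76 ± 0.17. The glycolytic enzyme Gapdh, with 94.3% of its stretches shared, fell by 0.53 ± 0.12 and the lysosomal sialidase Neu1 by 0.59 ± 0.15. None passed among 19 tested hypoxia genes, with 3 above 0 and a median of -0.21, or among 24 NF-kB and inflammatory genes, with 4 above 0 and a median of -0.21. Mitochondrially encoded proteins, p53 targets, mitotic genes and oxidative phosphorylation genes held no called member.

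Granule genes of basophils and mast cells set sgOgfod1 replicate 4 apart. These markers were singled out after their values were seen. In CPM without scaling between libraries, Cpa3, a mast cell carboxypeptidase, was at 4.50, 243 and 15.6 in sgOgfod1 replicates 3, 4 and 5 and at 9.40, 4.43 and 6.70 in sgScramble. Mcpt8, a basophil protease, was at 3.73, 41.9 and 4.92 in sgOgfod1 and at 1.69, 1.90 and 0.878 in sgScramble. In RNA, Cpa3 was at 9.74, 180.1, 9.57, 651 and 36 CPM in sgOgfod1 replicates 1 to 5 and at 19.6 to 28.5 CPM in sgScramble, so replicates 4 and 2 were the highest. Mcpt8 RNA was at 10.5 to 107 CPM in sgOgfod1, with replicate 4 the highest, and at 5.11 to 6.64 CPM in sgScramble, without overlap; it was 1 of the 22 genes called in RNA (adjusted p = 0.0386). The list of 20 markers of basophils, mast cells and eosinophils summed to 147, 832 and 242 CPM in sgOgfod1 and 366 to 495 CPM in sgScramble. Its member Prg2 held a large share, at 49.6, 244 and 84.1 CPM in sgOgfod1 and 205 to 325 CPM in sgScramble. Siglecf, also a member, was lower in sgOgfod1. Of the 12 tested members of this list, 9 were above 0. The basophil protease Prss34, called in footprints, had 18, 22 and 39 counts in the sgOgfod1 libraries and 0 in all 3 sgScramble libraries. Set against a floor of 3 counts over the sgScramble group it was at least 24.8-fold higher.

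The same genotypes were also compared in treated mice, which shared no library with the vehicle comparison. There 201 protein-coding genes were called (1.75%), 78 higher and 123 lower. Of the 94 genes higher in vehicle mice, 78 (83.0%) were above 0 under treatment, with a median of 0.26, and 6 were called higher: Igf2r, Cfap57, Prrc2c, Rnf213, the scaffold protein Akap9 and the piRNA-binding protein Piwil2. Of the 86 lower genes, 80 were below 0, with a median of -0.42, and 22 were called lower. Over all tested genes 49.7% were above 0. Slpi had 119 and 139 CPM in treated sgOgfod1 and 378 to 587 CPM in treated sgScramble mice, a log2 fold change of -1.96, against -1.05 in vehicle mice. Lamb3 had 7.02 and 10.1 CPM in treated sgOgfod1 and 21.8 to 38.7 CPM in treated sgScramble mice. Igf2r had 132 and 38.3 CPM in treated sgOgfod1, an uneven pair, and 17.4 to 25.1 CPM in treated sgScramble. The treated count was 81 without sgOgfod1 replicate 4, 406 without sgOgfod1 replicate 5, 90 and 81 without sgScramble replicates 2 and 3, and 305 without sgScramble replicate 5.

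The genotype effect differed between treated and vehicle mice for 3 genes (0.0262%). Ahnak was the clearest: treated mice had 16.2 and 12.9 CPM in sgOgfod1 and 33.1 to 51.5 CPM in sgScramble, so the gene that rose in vehicle mice fell under treatment (log2 fold change -1.52, adjusted p = 0.00863), and the difference between the effects was -3.27 ± 0.30 (adjusted p = 0.000734). Hmgb1 had 151 and 169.9 CPM in treated sgOgfod1 and 143 to 210.4 CPM in treated sgScramble, a difference between the effects of -1.26 ± 0.21 (adjusted p = 0.0328). Tgm1, a transglutaminase, was not called in vehicle mice and had 26.2 and 24.4 CPM in treated sgOgfod1 and 12.5 to 15.9 CPM in treated sgScramble, a difference between the effects of 1.2 ± 0.19 (adjusted p = 0.0221). The number of such genes was 30 without vehicle sgOgfod1 replicate 4 and 65 without treated sgOgfod1 replicate 5.

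**Figure D5:**
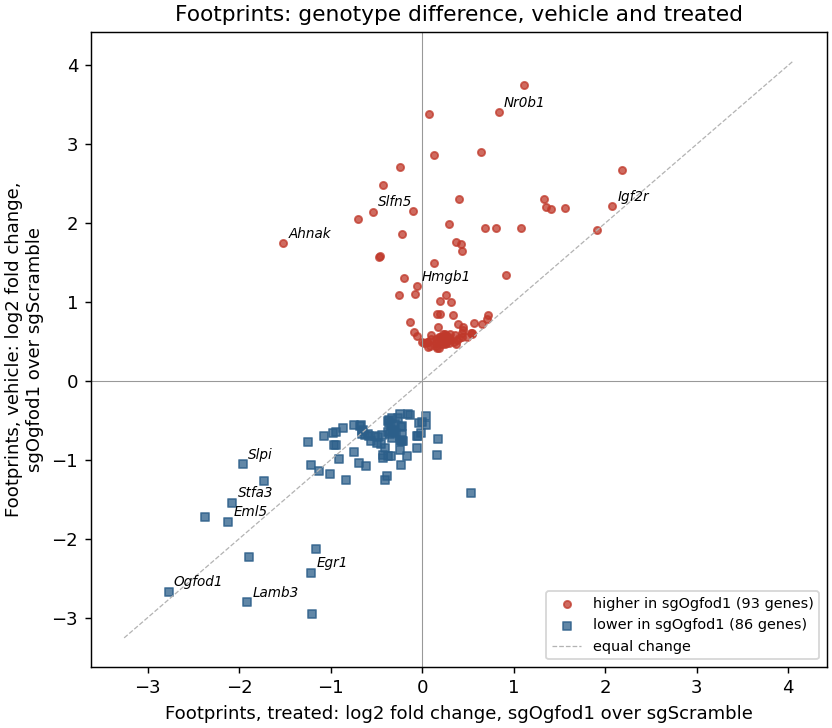
Log2 fold change of sgOgfod1 over sgScramble in footprints of vehicle mice (vertical axis) against treated mice (horizontal axis) for the protein-coding genes called in vehicle mice, without Prss34; circles are the higher genes, squares the lower genes, and the dashed line marks equal change. Most squares lie left of 0, while the circles crowd between 0 and 1 on the treated axis and Ahnak stands at -1.52.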

How the data were processed

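Footprint and RNA values are raw counts per gene, as the authors deposited them; per the submitters' processing notes reads passed through cutadapt, Bowtie2, STAR, SAMtools and featureCounts on GRCm38 (versions, strandedness and how reads with several matches were handled are not given in the sources used here). Libraries were grouped by their labels. From the counts, edgeR 4.0.16 (R 4.3.3; TMM scaling, filterByExpr, robust quasi-likelihood, means per group) was fitted to all 12 footprint libraries (18290 genes, 8 residual degrees of freedom) and, separately, to the RNA libraries; Benjamini-Hochberg adjustment ran over all genes of each fit, of all biotypes. Translation efficiency was the assay by group interaction in the 12 mice with both libraries, with mouse as a block. Levels are CPM scaled by TMM; an SE is the log2 fold change divided by the square root of F. Alternatives were DESeq2 1.42.0, limma 3.58.1, other filters and scalings, and leaving out each library. Simulated counts with known fold changes and 1 common spread for all genes were used to test the scripts. Of 50 genes changed 2-fold upwards, 46 were recovered in the vehicle footprint comparison (17974 genes tested), and of 50 changed 2-fold downwards, 39. For translation efficiency the numbers were 26 and 21. The changed genes all averaged over 50 counts. Replicate libraries differed beyond counting noise, so none was counted as a double deposit. The labels call replicates biological; p-values cover the spread between these mice, whose leukaemia has a common source.

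Named genes were those with an adjusted p under 0.05 in vehicle footprints, at least 10 CPM in the higher genotype and groups that did not overlap, up to 14 per direction by absolute log2 fold change, with Ogfod1, Rps23 and up to 4 members per gene list; genes outside this rule are said to be so or come from a count given in full. The comparison, lists and rules were chosen with earlier results of these data known. Coding sequences are the longest complete coding transcript per gene in GENCODE M21; 346 of 55487 gene IDs had no entry there. Some genes are not reported here.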

Additional observations from a re-analysis of the deposited data

Results flagged for a closer look

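For 3 genes the genotype effect on footprints differed between treated and vehicle mice in a direct test, with differences of -3.27 (log2) for Ahnak, -1.26 for Hmgb1 and 1.2 for Tgm1. The next values were single libraries far from the rest of their group among the named genes, in groups of 4 or 5; chance alone flags about 1 in 20 such groups, and 11 of 85 were flagged. In vehicle sgOgfod1 RNA these were Rps23 in replicate 4 (124 CPM, others at most 92.0), Sptbn1 in replicate 5 (326 CPM, others at least 356), Cgnl1 in replicate 2 (41.2 CPM, others at most 22.7), Hgf in replicate 3 (11.6 CPM, others at least 19.4) and Cercam in replicate 4 (8.16 CPM, others at least 12.9). In vehicle sgScramble RNA they were Sptan1 in replicate 4 (94.1 CPM, others at most 83.2), Fgl2 in replicate 3 (52.5 CPM, others at most 44.7) and Egr1 in replicate 5 (75.5 CPM, others at most 29.8). In treated sgScramble footprints they were Rps23 in replicate 1 (361 CPM, others at most 332), Sptbn1 in replicate 1 (76.5 CPM, others at most 62) and Macf1 in replicate 3 (49.9 CPM, others at most 41.5).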

How the results depend on the processing

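Counts of called protein-coding genes depended on the method more than the fold changes did. Against 180 in vehicle footprints, DESeq2 gave 366, no filter on low counts 588, limma voom with quality weights 496, the 6 vehicle libraries alone 325 and removal of the coding-length trend 119 (chosen after seeing the data); leaving out single libraries gave 34 to 194. Against 201 in treated footprints, DESeq2 gave 407, no filter 638, protein-coding genes alone 347, voom 37 and leaving out single libraries 81 to 406. Against 3 for the difference between treated and vehicle effects, DESeq2 gave 27, no filter 160 and leaving out single libraries 1 to 65. Against 22 in RNA, DESeq2 gave 105, no filter 14, the mice with a footprint library alone 36 and leaving out single libraries 3 to 16. Against 15 for translation efficiency, protein-coding genes alone gave 131, no filter 191, the 6 vehicle mice alone 7 and leaving out single libraries 3 to 24. With fewer libraries each fit has fewer samples; the cause of the other moves was not tested. The genotypes share only replicate numbers 3 and 5, whose deviations correlated at 0.085 and 0.047. Pairs of unlike numbers correlated at -0.068 to 0.025. All these values are small, so they do not settle whether the numbers pair the mice. With the replicate block 35 genes were called, 29 of them among the 180. There 19 of the 27 named genes missed the threshold, Ogfod1 stood at -2.91, and the RNA count was 18. Ogfod1 was called under every alternative run, at -2.91 to -2.38. Of the 27 named genes none changed sign in 14 alternatives; Ahnak, Cgnl1, Egr1, Hmgb1, Hmgn5 and Slfn5 passed in all, and Igf2r and Slfn8 missed the threshold in 8.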
